A study of Mus musculus with 9 samples.

Results

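A set of 9 genes that carry the insulin signal in the liver and set how much glucose it releases was followed over 3 groups of livers: the insulin receptor gene *Insr*, its adaptors *Irs1* and *Irs2*, the transcriptional regulators *Foxo1* and *Ppargc1a*, the glucose-producing enzymes *Pck1*, *Fbp1* and *G6pc*, and the glycolytic enzyme *Pklr*. They were chosen by gene name, with earlier results of these libraries known, from the 43346 genes listed in the deposited table, of which 15024 passed the expression filter and were tested. All 9 were among the genes tested. Whole liver of C57/BL6 mice (C57BL/6J in the methods) aged 12 weeks was profiled by RNA-Seq in 3 groups of 3 libraries. The baseline group holds liver removed at 70% partial hepatectomy, hour 0, from mice given vehicle (saline), and the other groups hold the remnants of livers 40 h after that operation, from mice given vehicle or NSC-87877 (NSC). NSC is a small molecule inhibitor of the phosphatases SHP2 and SHP1, given as 2 intraperitoneal injections a day of 7.5 mg/kg each. The sample records place its first dose 12 h before surgery and the methods 1 day before. Both groups at 40 h were set against the same 3 vehicle baselines, so those comparisons share their controls, and no liver taken at surgery from mice on NSC was used here. All mice were males fed ad libitum, per the methods. It is not stated whether liver from 1 mouse served both as a baseline and as a remnant of equal number. Surgery was timed uniformly within the day and night cycle, per the methods. The paper also reports weight loss in the days after surgery, similar with either treatment. Since 40 h is not a whole number of days, remnants were taken at another time of day than that of their surgery. Food intake is not given per mouse. The part of time of day and food intake in the changes from baseline was not tested.

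Insulin binds its receptor, a tyrosine kinase, which phosphorylates the adaptor proteins IRS1 and IRS2 and so activates PI3 kinase and AKT. AKT phosphorylates the forkhead factor FOXO1, which then leaves the nucleus and no longer drives the genes of glucose production, among them *G6pc*, *Pck1* and *Irs2* itself. Glucagon, the opposing hormone of fasting, acts through cAMP and CREB and raises *Ppargc1a* and *Pck1*. SHP2 binds IRS adaptors and takes part in signaling from several receptor tyrosine kinases. The liver keeps blood glucose up during fasting, and after partial hepatectomy a smaller mass of liver has this task while its cells divide.

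Both adaptor genes and the enzyme genes *Pck1* and *G6pc* are shown with the DNA before their start sites, because insulin and cAMP act on several of them through promoter elements. Sequences and start sites are from RefSeq on mouse build GRCm38.p6, and 8 of the 9 genes were matched there (*Insr* was not). The searched motifs were CAAAACA (the core of the insulin response element), GTAAACA (forkhead), ACGTCA (the core of the cAMP response element) and CACGTG (E-box), on both strands. Each line gives the 250 bases before the start, read 5′ to 3′ on the strand of the gene, with matches in capitals.

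Irs1 (chr1:82291440-82291689, minus strand): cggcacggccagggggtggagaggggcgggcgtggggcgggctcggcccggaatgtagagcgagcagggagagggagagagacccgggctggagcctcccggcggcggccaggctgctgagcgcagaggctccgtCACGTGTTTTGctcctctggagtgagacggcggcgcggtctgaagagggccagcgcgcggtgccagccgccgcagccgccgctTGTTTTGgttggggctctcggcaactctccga

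Irs2 (chr8:11008930-11009179, minus strand): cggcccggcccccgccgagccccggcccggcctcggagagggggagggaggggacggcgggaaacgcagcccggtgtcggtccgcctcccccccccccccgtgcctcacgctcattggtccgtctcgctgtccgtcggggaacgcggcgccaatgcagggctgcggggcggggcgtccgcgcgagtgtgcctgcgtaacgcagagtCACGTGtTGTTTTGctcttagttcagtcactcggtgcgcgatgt

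Pck1 (chr2:173152823-173153072, plus strand): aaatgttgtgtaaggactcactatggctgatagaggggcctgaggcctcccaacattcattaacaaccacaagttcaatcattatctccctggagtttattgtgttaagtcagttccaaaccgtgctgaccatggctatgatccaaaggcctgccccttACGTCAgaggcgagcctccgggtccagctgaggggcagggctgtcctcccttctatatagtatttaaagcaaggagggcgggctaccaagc

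G6pc (chr11:101367466-101367715, plus strand): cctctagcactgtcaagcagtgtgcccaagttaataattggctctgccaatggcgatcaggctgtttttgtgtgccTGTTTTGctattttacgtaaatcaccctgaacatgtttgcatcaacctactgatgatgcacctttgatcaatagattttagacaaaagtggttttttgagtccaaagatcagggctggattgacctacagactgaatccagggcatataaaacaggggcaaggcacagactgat

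The first motif, read as TGTTTTG from the other strand, occurred at -111 and -32 bases from the start of *Irs1*, at -37 in *Irs2* and at -174 in *G6pc*, where positions name the first base of the match. *Irs1* and *Irs2* each also held CACGTG, at -115 and -44, and in *Irs1* it overlapped the first motif. *Pck1* held ACGTCA at -91, as *Ppargc1a* did at -50. No match to these letters lay in the windows of *Foxo1*, *Fbp1* or either start of *Pklr*, and GTAAACA was in none of the windows searched. Of 32851 promoters of the same length, 5.56% held CAAAACA, 3.17% GTAAACA, 6.47% ACGTCA and 6.02% CACGTG in either direction. A match is a description of the letters and not of binding.

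Each library held 23997363 to 42887589 reads counted on genes. Levels are given as CPM (counts scaled to a common library total, with libraries adjusted by edgeR's TMM factors) in the order of replicates 1, 2 and 3, and a gene was called where edgeR's quasi-likelihood test over all 15024 genes gave a Benjamini-Hochberg adjusted p under 0.05. Markers of hepatocytes (10 genes), most of whose sum was albumin (*Alb*), were present in every library, with a summed level of 124504 to 133898 CPM at baseline, 97478 to 134823 CPM in vehicle remnants and 99702 to 128235 CPM in NSC remnants. Of these 10 markers 3 were called lower than baseline with vehicle and 4 with NSC, where 11.0% and 16.5% of all genes tested were called lower. Among the markers called was *Tat*, tyrosine aminotransferase, which fell by 1.25 ± 0.24 and by 1.93 ± 0.25 on the log2 scale (edgeR adjusted p = 0.0036 and 0.000225). Markers of macrophages (8 genes) summed to 152 to 223, 149 to 272 and 295 to 489 CPM in the same order. Markers of stellate cells (8 genes) summed to 199 to 236, 386 to 524 and 244 to 454 CPM, and those of bile duct cells (6 genes) to 37.8 to 40.9, 76.0 to 115 and 79.0 to 121 CPM. Most of the bile duct sum was *Spp1*. Of the 5 bile duct markers tested, 2 were higher and 3 lower with NSC than with vehicle, and none was called. For 2 of the 5 the treatments did not overlap, both lower with NSC, against 22.5% of all genes in either direction. Of the 8 macrophage markers 5 did not overlap, all higher with NSC, and of the 8 stellate markers 4 did not, all lower. None of these 2 lists was called between the treatments. Against baseline, 2 macrophage markers were called higher with vehicle and 5 with NSC, and 5 and 2 stellate markers. Of all genes, 12.7% and 18.2% were called higher. Leptin (*Lep*) was at 0 in every library, and the fat cell list of 5 genes never summed to more than 6.42 CPM. In whole liver, fewer cells of a type and less RNA per cell cannot be told apart, and the part of these shifts in the results that follow was not tested.

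Baseline replicate 2 stood apart in genes of the circadian clock. *Dbp*, a clock output gene, was at 81.0 CPM there and at 0.411 and 1.29 CPM in baseline replicates 1 and 3, while *Arntl*, which encodes the clock factor BMAL1, was at 1.65 CPM against 33.8 and 35.5 CPM. In the 6 livers at 40 h, *Dbp* was at 0.554 to 1.32 CPM and *Arntl* at 21.6 to 27.7 CPM. These 2 genes were named after their values were seen. The livers at 40 h also differed from all baselines in the clock list of 15 genes. It summed to 307 to 798 CPM at baseline, 194 to 228 CPM with vehicle and 226 to 248 CPM with NSC. Of the 15, 5 were called lower with vehicle and 4 with NSC, where 11.0% and 16.5% of all genes were, and none higher. Since baseline replicate 2 stood apart, the changes of the 9 genes from baseline are also given without it. So are those of other pathway genes where leaving it out ended a call or moved a called value by over 1.5 times. A difference from baseline in time of day or food intake shared by the livers at 40 h would remain without that library.

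The log2 fold changes also followed base composition. Across 14900 genes, which are not independent replicates, the change correlated with the GC content of the longest transcript with a Spearman rho of -0.125 in vehicle remnants against baseline, -0.412 in NSC remnants against baseline and -0.560 in NSC against vehicle remnants. GC content was 56.6% for *Irs2*, higher than 85.9% of genes tested, 53.0% for *Pck1* and 41.7% for *Ppargc1a*, against a median of 49.7%. A correction for GC content, chosen after seeing the data, is given beside some of the results. For others, the smallest value is given over all settings tried, which included this correction, other scalings, filters and tests, and fits without 1 library.

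**Figure D1:**
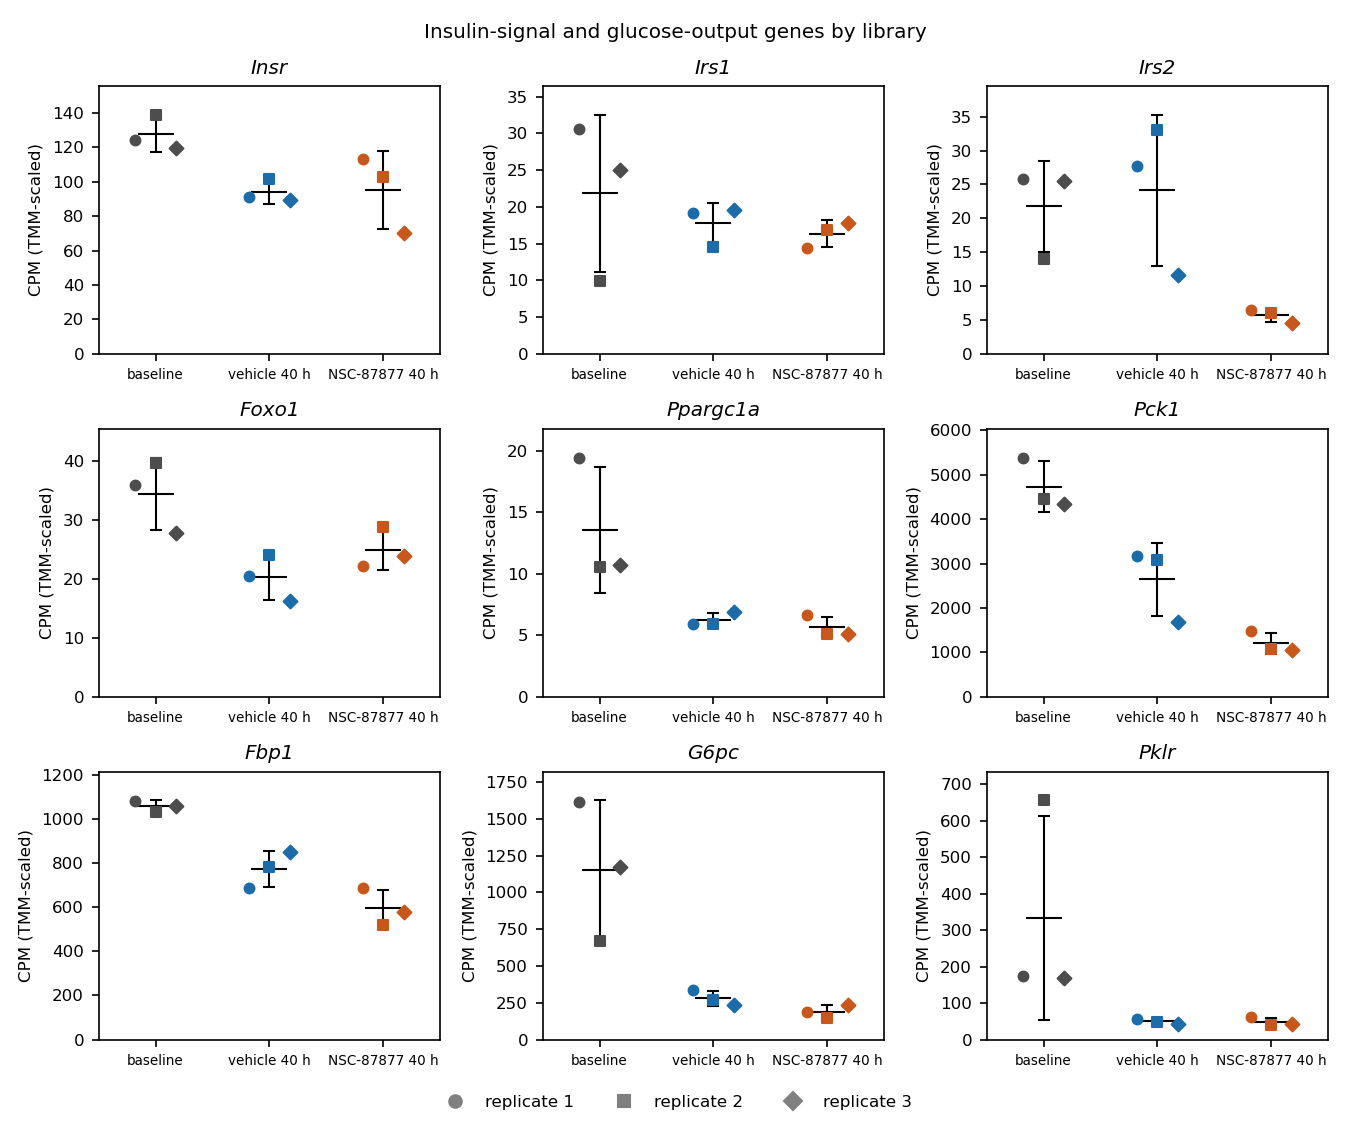
Level of each of the 9 genes (TMM-scaled CPM, axis from 0) in baseline, vehicle 40 h and NSC-87877 40 h livers, with 1 marker per library (circle, square and diamond for replicates 1, 2 and 3), the mean as a long tick and the SD as an error bar. *Irs2* in the NSC remnants lies at 4.54 to 6.42 CPM, under all 6 other libraries, and *Pklr* in baseline replicate 2 lies at 656 CPM, above all other libraries.

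Among the receptor and adaptors, *Irs2* was called lower than baseline in NSC remnants, while its vehicle remnants overlapped the baselines. *Irs2* (ENSMUSG00000038894, GRCm38 chromosome 8, 10986980 to 11008458), the adaptor whose expression follows fasting and feeding most closely in liver, was at 25.8, 14.0 and 25.5 CPM at baseline, 27.7, 33.1 and 11.6 CPM in vehicle remnants, and 6.42, 6.08 and 4.54 CPM in NSC remnants. The 3 NSC livers lay below all other livers, whereas vehicle and baseline livers overlapped and vehicle replicate 3 was lowest of its group. The log2 fold change from baseline was 0.15 ± 0.37 (SE, n = 3 against 3) with vehicle and -1.93 ± 0.39 with NSC, a 3.82-fold lower level. Without baseline replicate 2 these were -0.08 ± 0.36 and -2.17 ± 0.37, and without vehicle replicate 2 the value with vehicle was -0.14. NSC against vehicle was -2.09 ± 0.39, a 4.25-fold difference, which was -2.42 without vehicle replicate 3. After the GC correction the last 2 values were -1.63 ± 0.36 and -1.74 ± 0.36.

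*Irs1* (ENSMUSG00000055980, chromosome 1, 82233101 to 82291416), the adaptor that shares the route to PI3 kinase with *Irs2*, was at 30.6, 9.89 and 25.0 CPM at baseline, 19.2, 14.5 and 19.6 CPM in vehicle remnants and 14.3, 16.9 and 17.8 CPM in NSC remnants. All groups overlapped, and the lowest value was in baseline replicate 2. Its log2 fold changes were -0.30 ± 0.33 with vehicle, -0.42 ± 0.33 with NSC and -0.12 ± 0.33 between them. Without baseline replicate 2 the changes from baseline were -0.65 ± 0.19 and -0.77 ± 0.19, and both were then called. Without baseline replicate 1 the value with vehicle turned to 0.02.

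Set side by side per gene length, the ratio of *Irs2* to *Irs1* in the deposited FPKM values was 1.91, 3.21 and 2.32 at baseline, 3.29, 5.18 and 1.35 in vehicle remnants, and 1.02, 0.817 and 0.579 in NSC remnants. The NSC livers had the 3 lowest ratios of the 9 libraries. The windows before the start sites of both adaptors held CACGTG and TGTTTTG.

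*Insr* (ENSMUSG00000005534, chromosome 8, 3150922 to 3279617) encodes the receptor itself. It was at 124, 139 and 119.8 CPM at baseline, 90.8, 102 and 89.2 CPM in vehicle remnants and 113, 103 and 70.0 CPM in NSC remnants. Every liver at 40 h was below every baseline liver, and the groups at 40 h overlapped. The log2 fold changes from baseline were -0.44 ± 0.18 with vehicle and -0.42 ± 0.18 with NSC, and neither was called. The first was called without NSC replicate 3, in a fit of the 2 groups only and by edgeR's exact test (-0.44 in each), the second without NSC replicate 1 (-0.56), and both after the GC correction (-0.58 and -0.66). The values were -0.38 and -0.35 without baseline replicate 2, and neither was called.

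Of the regulators, *Ppargc1a* was called lower than baseline in both groups at 40 h and *Foxo1* in vehicle remnants. *Foxo1* (ENSMUSG00000044167, chromosome 3, 52268336 to 52353221), the forkhead factor that insulin signaling keeps out of the nucleus, was at 35.9, 39.6 and 27.7 CPM at baseline, 20.4, 24.0 and 16.2 CPM in vehicle remnants and 22.1, 28.7 and 23.9 CPM in NSC remnants. Vehicle remnants lay below all baselines, while NSC replicate 2 lay above baseline replicate 3. The log2 fold changes from baseline were -0.77 ± 0.19 with vehicle and -0.47 ± 0.19 with NSC, and the difference between the treatments was 0.30 ± 0.19. The first was called, except without vehicle replicate 3 (-0.63). The second was not called, except without baseline replicate 3 (-0.60), with the replicate number as a term (-0.46) and after the GC correction (-0.59). Without baseline replicate 2 they were -0.65, which was called, and -0.35.

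*Ppargc1a* (ENSMUSG00000029167, chromosome 5, 51454249 to 51567725) encodes the coactivator PGC-1α, which fasting raises in liver. It was at 19.4, 10.5 and 10.7 CPM at baseline, 5.93, 5.88 and 6.90 CPM in vehicle remnants and 6.63, 5.13 and 5.13 CPM in NSC remnants. All 6 livers at 40 h lay below all 3 baselines, and the treatments overlapped. The level was 2.17-fold lower than baseline with vehicle (log2 fold change -1.12 ± 0.25) and 2.40-fold lower with NSC (-1.27 ± 0.25). These were -1.27 and -1.42 without baseline replicate 2. The GC correction moved the value with NSC to -1.75 ± 0.22.

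Of the 3 enzymes of glucose production, *Pck1* and *G6pc* were called lower than baseline in both groups at 40 h, and *Fbp1* in NSC remnants. *Pck1* (ENSMUSG00000027513, chromosome 2, 173153048 to 173159273) encodes cytosolic phosphoenolpyruvate carboxykinase, which opens the route from oxaloacetate to glucose. It was at 5387, 4452 and 4344 CPM at baseline, 3159, 3084 and 1684 CPM in vehicle remnants and 1481, 1075 and 1058 CPM in NSC remnants. The 3 groups did not overlap, and vehicle replicate 3 lay nearest to the NSC livers. The level fell 1.79-fold with vehicle (log2 fold change -0.84 ± 0.25) and 3.92-fold with NSC (-1.97 ± 0.26), and it was 2.19-fold lower with NSC than with vehicle (-1.13 ± 0.25). The fall with vehicle was no longer called without vehicle replicate 3 (-0.59) or without baseline replicate 1, 2 or 3 (-0.74, -0.88 and -0.89). With NSC it was -2.01 without baseline replicate 2. After the GC correction NSC against vehicle was -0.95 ± 0.24.

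*G6pc* (ENSMUSG00000078650, chromosome 11, 101367561 to 101377903) encodes the catalytic subunit of glucose-6-phosphatase, the last step before glucose leaves the cell. It was at 1615, 668 and 1171 CPM at baseline, 336, 271 and 237 CPM in vehicle remnants and 186, 149 and 235 CPM in NSC remnants. All livers at 40 h lay below the lowest baseline, and the NSC livers lay below the vehicle livers, with NSC replicate 3 close to vehicle replicate 3. The level fell 4.09-fold with vehicle (log2 fold change -2.03 ± 0.30) and 6.06-fold with NSC (-2.60 ± 0.31), and both were called in each fit that left out 1 library. They were -2.31 and -2.87 without baseline replicate 2. NSC against vehicle was -0.57 ± 0.29.

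*Fbp1* (ENSMUSG00000069805, chromosome 13, 62864753 to 62888282) encodes fructose-1,6-bisphosphatase, which removes a phosphate midway in the route. It was at 1083, 1033 and 1061 CPM at baseline, 686, 783 and 851 CPM in vehicle remnants and 687, 519 and 579 CPM in NSC remnants. All livers at 40 h were below baseline, and NSC replicate 1 overlapped vehicle replicate 1. The log2 fold change was -0.45 ± 0.17 with vehicle, which was not called, and -0.83 ± 0.17 with NSC, a 1.78-fold lower level that was called. The value with vehicle was called without NSC replicate 1 (-0.45), in a fit of those 2 groups only (-0.45), by edgeR's exact test (-0.45), by DESeq2 (-0.47) and after the GC correction (-0.51). Without baseline replicate 2 the values were -0.47 and -0.85, of which the latter was called.

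*Pklr* (ENSMUSG00000041237, chromosome 3, 89136142 to 89146784) encodes the liver form of pyruvate kinase, which runs the opposite way, toward pyruvate, and is raised by sugar feeding. It was at 175, 656 and 169.7 CPM at baseline, 57.5, 49.3 and 43.9 CPM in vehicle remnants and 62.1, 39.8 and 43.4 CPM in NSC remnants. All livers at 40 h lay below the baselines, whose highest value, in replicate 2, was 3.86 times the lowest. The log2 fold changes from baseline were -2.73 ± 0.54 with vehicle (6.64-fold lower) and -2.78 ± 0.54 with NSC (6.89-fold lower). Without baseline replicate 2 they were -1.78 ± 0.20 (3.43-fold) and -1.83 ± 0.20 (3.56-fold), and both were still called. The treatments overlapped, with a difference of -0.05 ± 0.51.

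**Figure D2:**
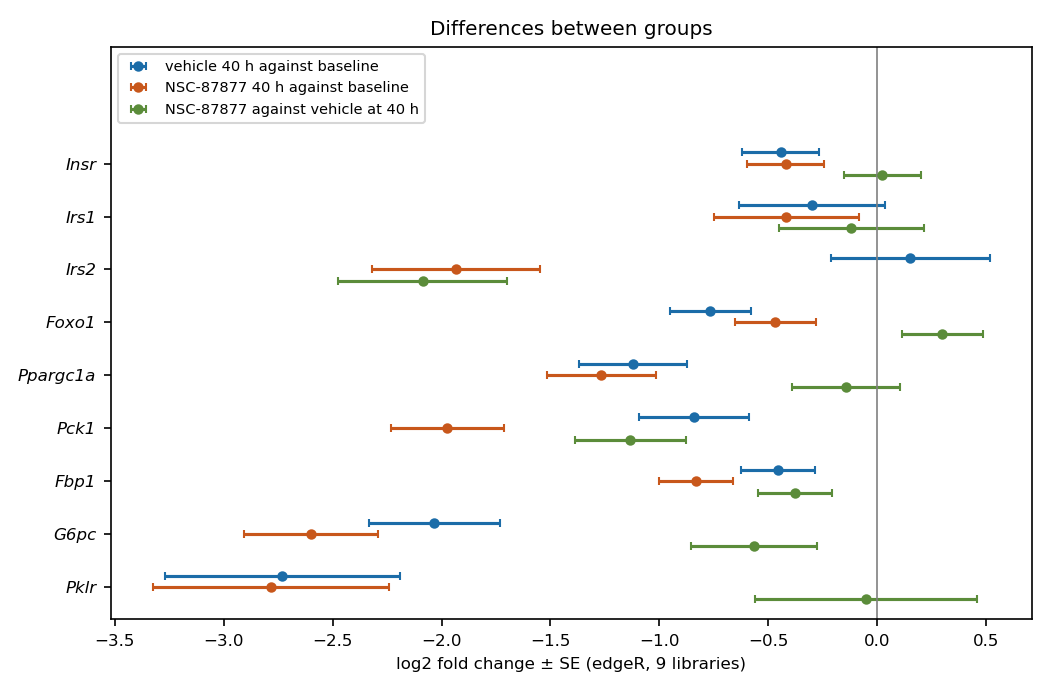
Log2 fold change of each of the 9 genes (points, with SE as bars; edgeR fit of 9 libraries) for vehicle 40 h against baseline, NSC-87877 40 h against baseline and NSC-87877 against vehicle at 40 h. *Pklr* and *G6pc* are farthest below 0 in both comparisons with baseline, and *Irs2* (-2.09) and *Pck1* (-1.13) are farthest below 0 between the treatments.

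Of the 9 genes, 5 were called lower than baseline in vehicle remnants and none higher, where 11.0% of all genes tested were called lower and 12.7% higher. In NSC remnants 6 were called lower and none higher, against 16.5% and 18.2% of all genes. With an absolute log2 fold change over 1.5 as well, 2 and 4 of them passed, against 7.22% and 8.13%. In each comparison with baseline 7 of the 9 did not overlap, all of them lower, against 46.3% and 47.1% of genes in either direction. Since these genes were chosen with the results known, nothing is read from their counts. Without vehicle replicate 3 the 5 became 3. The median log2 fold change of the 9 was -0.77 with vehicle and -1.27 with NSC, beside 0.01 for all genes in both.

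Between NSC and vehicle remnants, none of the 9 was called, where 0.0399% of all genes (6 genes) were called, and 0.0200% with the fold change threshold. *Irs2*, *Pck1* and *G6pc* did not overlap between the treatments, all lower with NSC, against 22.5% of all genes in either direction. At an unadjusted p under 0.05 there were 3 of the 9 and 2929 of all genes. DESeq2 and edgeR's exact test each called *Irs2* and *Pck1*, where over all genes they called 756 and 256. Without vehicle replicate 3 both were called (-2.42 and -1.38), and without NSC replicate 1 *Pck1* was called (-1.31). With no filter on low counts *Pck1* was also called (-1.13), while after the GC correction none of the 9 was.

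By FPKM, which allows levels of different genes to be compared, *Pck1* led at baseline with 1330 ± 154 FPKM (SD, n = 3), followed by *Fbp1* at 601 ± 13.4, *G6pc* at 460 ± 188, *Pklr* at 99.4 ± 83.1, *Insr* at 12.8 ± 0.986, *Irs2* at 5.22 ± 1.62, *Foxo1* at 3.83 ± 0.666, *Irs1* at 2.30 ± 1.13 and *Ppargc1a* at 1.97 ± 0.728. Baseline livers overlapped between *Fbp1* and *G6pc*, and between each of the last 4 genes and its neighbor. In vehicle remnants the order of the 9 genes was the same, from 752 ± 253 FPKM for *Pck1* to 0.915 ± 0.108 for *Ppargc1a*, with overlap between *Pck1* and *Fbp1* and between *Foxo1* and *Irs1*. In NSC remnants *Pck1* (375 ± 87.9 FPKM) and *Fbp1* (373 ± 67.4) could not be separated, *Pklr* (16.0 ± 4.56) and *Insr* (10.5 ± 2.64) overlapped, and *Irs2* (1.20 to 1.76 FPKM) stood below *Foxo1* (3.05 ± 0.305) and *Irs1* (1.90 ± 0.171), overlapping the latter.

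The rest of the pathway was followed through 114 genes listed by role, of which 112 were tested. In vehicle remnants 7 rose and 34 fell, 36.6% in all where 23.7% of all genes tested were called, with a median log2 fold change of -0.30. In NSC remnants 11 rose and 45 fell, 50% in all where 34.7% of all genes were called, with a median of -0.49. These lists were drawn up with results of these data known, so no excess over the shares of all genes is read from them. The called genes were 29 and 50 without baseline replicate 2. Of the genes called, 21 of 41 and 41 of 56 were also called in all 9 fits that each left out 1 library.

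Among 16 carriers of the insulin signal, 4 fell with vehicle (25% called, near the 23.7% of all genes), and 5 fell and 1 rose with NSC (37.5%, near the 34.7% of all genes). *Foxo3*, a forkhead factor related to *Foxo1*, fell 2.51-fold with vehicle (log2 fold change -1.33 ± 0.14, edgeR adjusted p = 0.00012) and 2.76-fold with NSC (-1.47 ± 0.14, edgeR adjusted p = 5.06e-05). *Gab1*, a docking protein that binds SHP2, fell with vehicle (-0.70 ± 0.19, edgeR adjusted p = 0.0179), a call lost without baseline replicate 2 (-0.54) or vehicle replicate 1 (-0.60). *Pik3r2*, a regulatory subunit of PI3 kinase, fell with NSC (-0.99 ± 0.19, edgeR adjusted p = 0.00192). Its smallest change with NSC over all settings tried was -0.47, still called. *Pik3ca*, a catalytic subunit, was the gene called higher with NSC (0.46 ± 0.14, edgeR adjusted p = 0.0245), a call that was lost without baseline replicate 2 or 3 (0.46 and 0.38) or NSC replicate 1 or 2 (0.40 and 0.45), and its value was -0.06 after the GC correction. *Ptpn11*, which encodes SHP2, was at 82.8, 70.1 and 80.4 CPM at baseline, 85.4, 94.5 and 86.8 CPM with vehicle and 93.9, 83.6 and 76.4 CPM with NSC. It was called in no comparison (edgeR adjusted p = 0.335, 0.518 and 0.809).

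Among 9 tested inhibitors of the insulin signal, 3 rose with vehicle (33.3% called against 23.7% of all genes), and 3 rose and 1 fell with NSC (44.4% against 34.7%). *Socs3*, a feedback inhibitor induced by cytokines, was at 11.2, 14.9 and 5.81 CPM at baseline, 79.6, 82.5 and 62.3 CPM with vehicle and 33.3, 38.5 and 26.7 CPM with NSC. The 3 groups did not overlap. It rose 7.02-fold with vehicle (2.81 ± 0.30, edgeR adjusted p = 0.000231) and 3.08-fold with NSC (1.62 ± 0.29, edgeR adjusted p = 0.00222). *Grb10*, an adaptor that blocks the receptor, rose by 1.19 ± 0.22 with vehicle and by 0.80 ± 0.22 with NSC (edgeR adjusted p = 0.00256 and 0.014). *Ptpn6*, which encodes SHP1, fell with NSC (-0.47 ± 0.14, edgeR adjusted p = 0.0229), which was no longer called without baseline replicate 3 (-0.40), without NSC replicate 2 or 3 (-0.49 and -0.42) after the GC correction (-0.26) or with scaling by library size only (-0.33).

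Among 15 tested genes that feed or complete glucose production, 6 fell and 1 rose with vehicle (46.7% called against 23.7% of all genes), and 7 fell and 1 rose with NSC (53.3% against 34.7%). *Got1*, the cytosolic aspartate aminotransferase that carries carbon to *Pck1*'s substrate, was at 484, 609 and 440.1 CPM at baseline, 142, 248 and 241 CPM with vehicle and 95.8, 80.8 and 119 CPM with NSC. It fell 2.43-fold with vehicle (-1.28 ± 0.23, edgeR adjusted p = 0.00259) and 5.19-fold with NSC (-2.38 ± 0.24, edgeR adjusted p = 6.05e-05). *Sds*, which turns serine into pyruvate, fell 5.83-fold with NSC (-2.54 ± 0.43, edgeR adjusted p = 0.0024). With vehicle it was at -1.67 ± 0.42 (edgeR adjusted p = 0.0202), a call lost without baseline replicate 1 or 2 (-1.67 and -1.48) or vehicle replicate 1 or 3 (-1.48 and -1.52).

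*Pcx*, pyruvate carboxylase, the first step from pyruvate, was at 577, 725 and 656 CPM at baseline, 559, 574 and 446 CPM with vehicle and 319, 293 and 252 CPM with NSC. It fell 2.27-fold with NSC (-1.18 ± 0.18, edgeR adjusted p = 0.000519), and its smallest change over all settings tried was -0.82, still called. With vehicle its change was -0.31 ± 0.17 (edgeR adjusted p = 0.214). *Pck2*, the mitochondrial counterpart of *Pck1*, was the gene that rose, by 1.37 ± 0.39 with vehicle and by 1.16 ± 0.39 with NSC (edgeR adjusted p = 0.0283 and 0.0413). These calls were lost in 4 and 6 of the 9 fits that left out a library, each baseline library included, with values from 0.94 to 1.63 and from 0.94 to 1.46.

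In glycolysis and sugar entry (19 genes), 6 fell and 1 rose with vehicle (36.8% called against 23.7% of all genes), and 7 fell and 1 rose with NSC (42.1% against 34.7%). *Pdk1* and *Pdk2*, kinases that switch off pyruvate dehydrogenase, were among the falling genes of this list, with *Pdk1* at -2.02 ± 0.28 with vehicle and -1.77 ± 0.28 with NSC (edgeR adjusted p = 0.000877 and 0.0011) and *Pdk2* at -1.41 ± 0.22 and -2.02 ± 0.22 (edgeR adjusted p = 0.00106 and 0.000103). *Hk2*, a hexokinase of low level in liver, was the gene called higher with NSC (1.33 ± 0.46, edgeR adjusted p = 0.0429), a call lost in 5 of the 9 fits that left out a library. *Pkm*, the pyruvate kinase gene of most other tissues, rose 2.78-fold with vehicle (1.48 ± 0.23, edgeR adjusted p = 0.00106).

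Of 8 reversible steps shared by both directions, 2 fell and 1 rose with vehicle (37.5% called against 23.7% of all genes) and 4 fell and 1 rose with NSC (62.5% against 34.7%). *Ldha*, lactate dehydrogenase A, rose by 0.77 ± 0.16 with vehicle and by 0.61 ± 0.16 with NSC (edgeR adjusted p = 0.00569 and 0.0131), the latter not called without baseline replicate 1 or 2 (0.59 and 0.55). *Eno1*, enolase, fell by 1.01 ± 0.18 with NSC (edgeR adjusted p = 0.00159), where its smallest change over all settings tried was -0.67, still called. Its value with vehicle was -0.56 ± 0.18 (edgeR adjusted p = 0.0425), a call lost in 6 of the 9 fits that left out a library. Without baseline replicate 2, which was 1 of these 6, it was -0.48.

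Of 11 glycogen genes, 6 fell with vehicle (54.5% called against 23.7% of all genes), and 6 fell and 1 rose with NSC (63.6% against 34.7%). *Ppp1r3g*, a subunit that brings protein phosphatase 1 to glycogen, had 1259, 781 and 700 counts at baseline, 17, 135 and 11 with vehicle, and 4, 3 and 0 with NSC. With vehicle it fell by 4.29 ± 0.82 on the log2 scale (edgeR adjusted p = 0.00909), which was -6.10 without vehicle replicate 2, the liver with 135 counts, and with NSC it was called lower as well (edgeR adjusted p = 0.00158), where the size of the fall rests on a total of 7 counts. *Gyg*, glycogenin, which starts new glycogen, was the gene called higher with NSC (0.86 ± 0.23, edgeR adjusted p = 0.0127), a call lost without baseline replicate 1 or 3 (0.73 and 0.76) or NSC replicate 2 (0.71). *Ppp1r3b*, a relative of *Ppp1r3g*, fell 3.44-fold with vehicle (-1.78 ± 0.23, edgeR adjusted p = 0.000365) and 2.24-fold with NSC (-1.16 ± 0.23, edgeR adjusted p = 0.00248).

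Among 26 regulators of glucose production, 9 fell and 1 rose with vehicle (38.5% called against 23.7% of all genes), and 12 fell and 3 rose with NSC (57.7% against 34.7%). *Ppargc1b*, the relative of *Ppargc1a*, fell 5.07-fold and 5.55-fold (-2.34 ± 0.47 and -2.47 ± 0.48, edgeR adjusted p = 0.00404 and 0.00226), or -1.75 and -1.88 without baseline replicate 2, both still called. *Cebpa*, a hepatocyte factor that drives *Pck1*, fell 2.92-fold with vehicle, and with NSC as well (-1.55 ± 0.22 and -1.32 ± 0.22, edgeR adjusted p = 0.000687 and 0.00105). Over all settings tried, the smallest change of *Cebpa* with NSC was -0.78, still called. *Klf15*, a regulator of amino acid use in fasting, fell 2.38-fold and 2.94-fold (-1.25 ± 0.28 and -1.56 ± 0.28, edgeR adjusted p = 0.00803 and 0.00186). *Sirt1*, a deacetylase that acts on PGC-1α, rose by 0.97 ± 0.23 with NSC (edgeR adjusted p = 0.00637), but was at 0.56 and not called after the GC correction. With vehicle it was at 0.69 ± 0.23 (edgeR adjusted p = 0.0442), a call lost in 6 of the 9 fits that left out a library. *Foxa1*, a forkhead pioneer factor, rose 2.06-fold with NSC (1.05 ± 0.24, edgeR adjusted p = 0.00614). *Gcgr*, the glucagon receptor gene, fell by 0.61 ± 0.15 with vehicle and by 1.10 ± 0.15 with NSC (edgeR adjusted p = 0.0112 and 0.000325), the former not called without baseline replicate 3 (-0.53). The smallest change of *Gcgr* with NSC over all settings tried was -0.75, still called.

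Of 3 genes that insulin lowers, none was called with vehicle and 1 fell with NSC, and of 5 genes that insulin raises, 1 fell with vehicle and 2 fell with NSC. With vehicle 0% and 20% of these 2 lists were called against 23.7% of all genes, and with NSC 33.3% and 40% against 34.7%. *Igfbp1*, a secreted binding protein lowered by insulin, was at 911, 257 and 776 CPM at baseline, 1000.1, 999 and 408 CPM with vehicle and 486, 136 and 37.6 CPM with NSC. The groups overlapped, baseline replicate 2 and vehicle replicate 3 were the lowest of their groups as they were for *Irs2*, and no comparison was called (edgeR adjusted p = 0.842, 0.234 and 0.316). *Apoc3*, an apolipoprotein, was the one that fell with NSC (-0.67 ± 0.18, edgeR adjusted p = 0.0119), and it was at -0.40 and not called after the GC correction. Of the genes that insulin raises, *Acly*, which makes acetyl-CoA for fat synthesis, fell 2.49-fold with vehicle and 4.31-fold with NSC (-1.32 ± 0.30 and -2.11 ± 0.31, edgeR adjusted p = 0.00912 and 0.000586), and *Fasn*, fatty acid synthase, fell 5.66-fold with NSC (-2.50 ± 0.54, edgeR adjusted p = 0.00807). *Fasn* was highest in baseline replicate 2, at 1298 CPM against 337 and 535 CPM, and without that library its fall with NSC was -1.77 and still called.

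**Figure D3:**
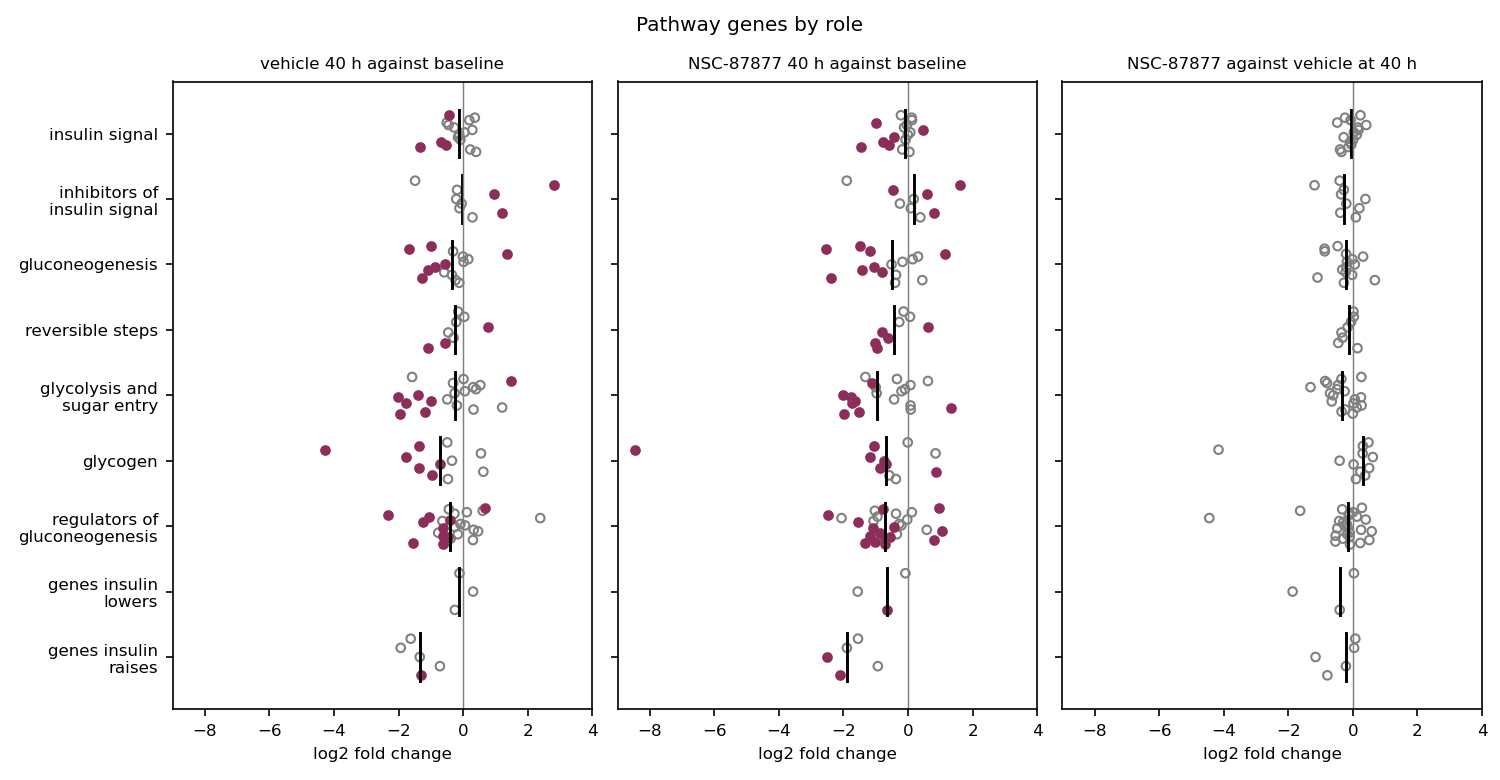
Log2 fold change of each tested pathway gene outside the 9, in rows by role and in panels by comparison, with filled points for genes at an edgeR adjusted p under 0.05, open points for the others and a vertical bar at the median of the row. In the comparisons with baseline most filled points lie below 0 (34 of 41 and 45 of 56), and the panel of NSC-87877 against vehicle has no filled point.

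Between NSC and vehicle remnants none of the 112 genes was called by the edgeR quasi-likelihood test. In that test 29 of them had an unadjusted p under 0.05, beside 2929 of the 15024 genes tested. DESeq2 and edgeR's exact test called 9 each of the 112, where over all genes they called 756 and 256. The median log2 fold change was -0.16, beside 0.02 for all genes. *Pcx* was at -0.87 ± 0.17 (edgeR adjusted p = 0.0849) and *Got1* at -1.10 ± 0.23 (edgeR adjusted p = 0.0849), and neither gene overlapped between the treatments. *Pcx* was called without vehicle replicate 3 (-0.98) and without NSC replicate 1 (-0.95), and *Got1* without NSC replicate 1 (-1.08). *Socs3* was at -1.19 ± 0.28 (edgeR adjusted p = 0.0917), and it was called with the replicate number as a term (-1.20), by the exact test and by DESeq2 (-1.19 and -1.18). Others with the smallest unadjusted p of their lists were *Pfkl*, the liver phosphofructokinase (-0.80 ± 0.19), *Gcgr* (-0.48 ± 0.15) and *Acly* (-0.79 ± 0.30), with edgeR adjusted p = 0.0898, 0.131 and 0.187. *Eno1* (-0.45 ± 0.18) and *Apoc3* (-0.41 ± 0.18) had edgeR adjusted p = 0.202 and 0.228. *Pfkl* was called without vehicle replicate 3 (-0.98) and without NSC replicate 1 (-0.77). After the GC correction *Pcx* was at -0.52, *Got1* at -0.96 and *Socs3* at -0.81. Over all settings tried, that correction among them, the smallest differences were -0.47 for *Pfkl*, -0.39 for *Acly* and -0.15 for *Gcgr*. For *Eno1* and *Apoc3* they were -0.12 each.

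Vehicle replicate 3 was the lowest vehicle liver in *Irs2*, *Pck1*, *Insr*, *Foxo1*, *G6pc* and *Pklr*, and the highest in *Irs1*, *Ppargc1a* and *Fbp1*. *Nr4a1*, an early response gene that glucagon raises in liver, was at 87.1, 79.9 and 4.65 CPM in the vehicle livers and 1.80 to 3.68 CPM with NSC, and *Sik1*, a kinase that restrains CREB signaling, at 111, 80.6 and 26.7 CPM and 20.2 to 27.1 CPM. Both were named after their values were seen, and the part of this difference between vehicle livers in the results was not tested.

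**Figure D4:**
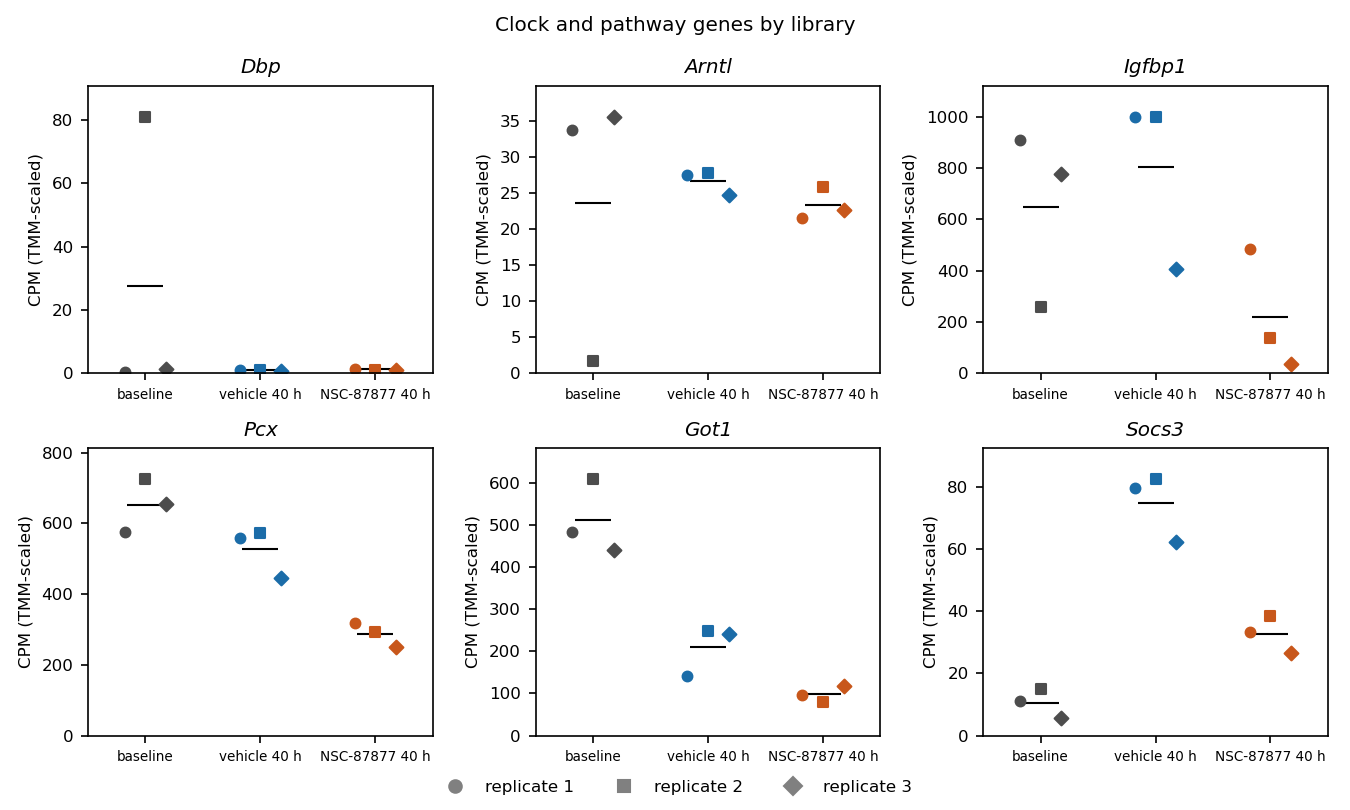
Level (TMM-scaled CPM, axis from 0) of the clock genes *Dbp* and *Arntl*, the insulin-lowered gene *Igfbp1*, the enzymes *Pcx* and *Got1* and the feedback inhibitor *Socs3*, with 1 marker per library and the group mean as a horizontal line. Baseline replicate 2 (square) is at 81.0 CPM for *Dbp* and 1.65 CPM for *Arntl*, apart from the other 8 livers, and *Socs3* separates the 3 groups.

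The genes most like each of the 9 were taken as the 2 with the highest Pearson correlation of log2 CPM over the 9 libraries, which share group means and base composition trends, so the values are descriptions. For *Irs2* they were *Zfp335* (r = 0.980) and *Ptpn23* (r = 0.976), for *Irs1* *Gtf2e1* (0.944) was first, and for *Insr* *Kmt2e* (0.976) was first. For *Foxo1* they were *Ifit3* (0.966) and *Ash2l* (0.944), and for *Ppargc1a* *Cnst* (0.986) and *Btbd19* (0.979). For *Pck1* they were *Gm15800* (0.990) and *Bsdc1* (0.988), for *G6pc* *Mettl7b* (0.982) and *Rtfdc1* (0.978), for *Fbp1* *Akap5* (0.986) and *Pde4c* (0.969), and for *Pklr* *Slc10a1* (0.977) and *Adarb1* (0.974).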

How the data were processed

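RNA-Seq of whole mouse liver was analysed in 9 libraries. The authors made the libraries with a stranded mRNA kit, aligned reads with STAR 2.6.1 in the MAP-RSeq pipeline, counted them with featureCounts of Subread 1.5.1, and deposited raw counts per gene and FPKM (counts per gene length and library total) without pooling replicates. The submitters' notes and the methods name hg38, whereas the identifiers and coordinates in the deposited table are mouse GRCm38 ones. Gene names are those of the table, with 2 listed genes matched by identifier.

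Counts were analysed with edgeR 4.0.16 in R 4.3.3 (limma 3.58.1, DESeq2 1.42.0), and Python 3.11.15, pandas 2.3.3 and matplotlib 3.10.9 made tables and plots. Genes were kept by filterByExpr, libraries scaled by TMM, and 1 robust quasi-likelihood fit of 9 libraries had the group as its only term. The SE of a log2 fold change is its size divided by the square root of F. Correlations between genes used log2 CPM with a prior count of 2. The fit was tested on simulated data. No library duplicated another of its own group, and pairs across groups were not checked. Samples with the same number did not deviate together in every pair, so the numbers were not treated as pairs. Across genes their deviations from group means correlated at -0.048 to 0.134, and those of samples with different numbers at -0.115 to 0.066. P-values of the edgeR fit set group differences against the spread between livers within groups, pooled over the 9 libraries. That spread was also drawn toward the values of other genes. Each group had 3 livers, and an exact permutation test of 3 against 3 cannot go below 0.1. The 9 genes, the pathway lists and the motifs were chosen with earlier results of these data known. Pathway genes named are, per list, up to 2 rising and 2 falling called genes without overlap between groups (between treatments, the smallest unadjusted p), with *Ptpn11*, *Ptpn6*, *Igfbp1* and *Pcx*. A few genes that this rule or the likeness ranking names are not reported here. *Got1* between treatments and *Gcgr* against baseline were named after their values were seen. Genes with close paralogs or overlapping neighbors are uncertain. The GC correction removed from each library a loess curve (span 0.5) fitted to GC content, taken from the longest transcript per gene in GENCODE M21 and known for 99.2% of tested genes, and was added after seeing the data.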

Additional observations from a re-analysis of the deposited data

Results flagged for a closer look

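*Akt2*, which encodes the AKT kinase that carries most of the insulin signal in liver, was higher than every baseline liver in all 3 vehicle remnants (113, 123 and 110.3 CPM against 91.4, 97.5 and 109 CPM) and lower than every baseline liver in all 3 NSC remnants (90.0, 87.5 and 85.5 CPM). The log2 fold change was 0.22 ± 0.13 with vehicle and -0.18 ± 0.13 with NSC, and neither was called (edgeR adjusted p = 0.245 and 0.314). The test of the difference itself, NSC against vehicle, gave -0.40 ± 0.13 with an unadjusted edgeR p of 0.0102 and an edgeR adjusted p of 0.147. After the GC correction the difference was -0.14 (edgeR adjusted p = 0.662) and the change with NSC was 0.05.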

How the results depend on the processing

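Precision is limited by 3 livers per group. With an absolute log2 fold change over 1.5 as a further condition, the 9 genes called fell from 5 to 2 with vehicle, and the pathway genes from 41 to 9 with vehicle and from 56 to 14 with NSC. Leaving out 1 library gave 3 (without vehicle replicate 3) to 6 of the 9 genes and 28 to 48 pathway genes with vehicle, 6 to 7 and 45 to 60 with NSC, and 0 to 2 and 0 to 5 between the treatments. The last counts came from the fits without vehicle replicate 3 (2 of the 9 and 3 pathway genes) and without NSC replicate 1 (1 and 5). Between the treatments, where none was called, having no filter on low counts gave 1 of the 9 and 3 pathway genes, the exact test 2 and 9, and DESeq2 2 and 9. Over all genes this comparison had 6 calls, against 221 with no filter, 256 by the exact test, 756 by DESeq2, 111 without vehicle replicate 3, 994 without NSC replicate 1 and 0 after the GC correction, and the cause was not tested. The GC correction gave 7 and 8 of the 9 genes and 51 and 59 pathway genes in the comparisons with baseline, and turned the log2 fold change of *Pik3ca* in NSC remnants against baseline to -0.058. Scaling by library size alone moved the median of all genes to 0.15 and 0.14 in the comparisons of NSC with baseline and with vehicle, and changed no count of the 9 genes or of pathway genes by over 1.5 times. The replicate numbers were not used as pairs, since same-numbered samples did not deviate together in every pair, and not every library correlated best with its own number. With the replicate block, 5, 7 and 0 of the 9 genes and 45, 59 and 1 pathway genes were called.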
